A study of Bos taurus with 252 samples.

Results

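Interferon-stimulated genes are the genes that cells switch on when interferon, a cytokine released on contact with a virus or another microbe, binds its receptor. A list of 39 such genes was followed in the whole blood of feedlot steers, and 38 of the 39 were found among the 33282 genes of the count table. BST2 was not found there and is not analysed here. OAS1Z had no counts in 191 libraries and OAS2 had none in 250, so neither passed the filter on low counts, and 36 members were tested among 19056 genes in all. The list holds gene names only, and its rule uses no measured value, but it was chosen with earlier results of these data known.

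The 42 crossbred steers formed 7 groups of 6, and each was bled at the start (day 0) and 3, 7, 14 and 21 days later, with a last sample on day 56, so that every steer has 6 libraries. NC cattle received no antimicrobial. In the other groups an antimicrobial was administered once on day 0, after that day's blood was drawn. CEFT steers were given ceftiofur, a cephalosporin, ENRO steers enrofloxacin, a fluoroquinolone, and FLOR steers florfenicol. OXYT steers were given oxytetracycline, and TILD and TULA steers the macrolides tildipirosin and tulathromycin. All groups shared an earlier history at a backgrounding yard, where every steer, NC included, had been given tildipirosin, antiparasitics, a growth implant and vaccines against respiratory viruses. No steer was persistently infected with the virus of bovine viral diarrhea, and none was treated for disease during the trial. Each group occupied a single pen and the pens were handled in the same order on every day, so treatment, pen and handling order cannot be told apart. The 6 libraries of a steer were sequenced in the same lane for 42 of 42 steers, but NC and ENRO were run wholly in lane 1 and CEFT and OXYT wholly in lane 3. The study asked how antimicrobials given to a whole group at arrival, to prevent respiratory disease, altered gene expression in blood. Library totals lay between 26073640 and 74110289 counts, with a median of 43608836 counts, so that the filter of 0.2 CPM (counts scaled to library size) stood for about 8.72 counts in a library of median size. Markers of T cells, B cells, NK cells, monocytes, neutrophils, platelets and erythroid cells were found, in keeping with the labelled tissue.

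Type I interferons signal through a receptor and the kinases JAK1 and TYK2 to a complex that contains STAT2 and IRF9 and binds the promoters of interferon-stimulated genes. The products act at several steps. RIG-I (gene DDX58), MDA5 (IFIH1) and LGP2 (DHX58) sense viral RNA, the MX, OAS, PKR and IFIT proteins block viral replication or translation, and ISG15 is a ubiquitin-like protein that USP18 removes again from its targets. In blood these genes are widely used as a readout of recent exposure to interferon.

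Some members had no counts in all libraries of single animals, and this was examined before any comparison. MX1, a dynamin-like GTPase with antiviral activity, had 0 counts in all 6 libraries of steer NC1, out of 261403837 counts in those libraries together. A count of 0 there allows an MX1 level of up to 0.0117 CPM, by a floor of 3 counts over the 6 libraries. The other 246 libraries had a median of 305.8 CPM, and 0 of them had no counts. MX2, the neighbouring gene of the same family, lay between 421 CPM on day 14 and 1187 CPM on day 21 in NC1, and the latter was the highest of all steers on that day. ISG15 and RSAD2 were present in all 6 NC1 libraries as well, with 26.01 to 249.6 CPM and 21.8 to 108 CPM. OAS1X, an oligoadenylate synthetase, had 0 counts over 6 libraries in each of steers Ceft10, Oxyt2 and Tula7, but it is a low gene, with a median of 1.303 CPM in the other 246 libraries, 17 of which were also at 0. OAS1Y reached its highest level of all libraries, 1187 CPM, in Ceft10 on day 0. OAS1X, OAS1Y and OAS1Z are close relatives in a gene cluster, and reads that match more than a single copy may have been split between them, so OAS1X values are uncertain. The cause of these absences was not tested.

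Other members dropped in scattered libraries rather than in whole animals. DDX58 was more than 10-fold below its steer's median in 21 libraries of 17 steers, with values from 0 to 3.09 CPM against an overall median of 33.1 CPM. IFI44 did so in 12 libraries of 12 steers, at 0 to 1.26 CPM. ISG15 did so in 3 libraries, among them Enro5 on day 21 with 0.946 CPM, the lowest value of that gene. Of the 36 members tested, 9 had at least 1 such library, and these drops widen the spread of DDX58, IFI44 and OAS1X in every comparison below.

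**Figure D1:**
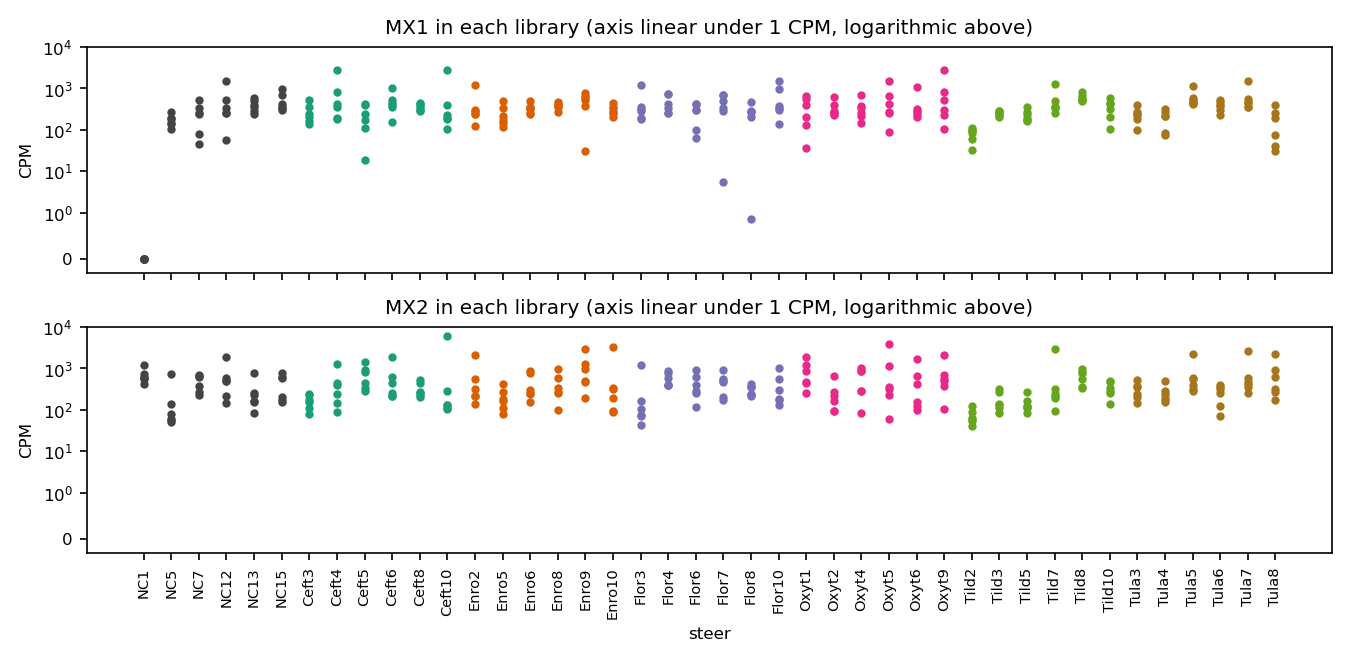
CPM of MX1 (top) and MX2 (bottom) in each library, with steers on the x axis grouped and coloured by treatment (NC, CEFT, ENRO, FLOR, OXYT, TILD, TULA from left to right) and a point for each day. All 6 MX1 points of NC1 lie at 0, while its MX2 points lie between 421 and 1187 CPM, and single low MX1 points are seen in Flor8 (0.859 CPM on day 21) and other steers.

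The level of the interferon-stimulated genes fell over the 56 days. The 5 later days were compared with day 0 over all 42 steers, with steer as a block, by the quasi-likelihood F test of edgeR. In it 31 of 36 members changed at a false discovery rate (FDR) of 0.05, or 86.1%, against 77.7% of all genes tested. On single days every called member was lower. On day 3, 5 members were lower than on day 0 and 0 were higher, where 19.4% of all genes were called lower. The number lower was 19 on day 7 (all genes 20.6%), 18 on day 14 (30.5%), 29 on day 21 (32.1%) and 30 on day 56 (31.1%), and no member was called higher on any of these days, where 21.0%, 24.5%, 32.8%, 32.7% and 32.7% of all genes were. The median log2 change from day 0 over the 36 members was -0.09 on day 3 and then -0.33, -0.36, -0.66 and -0.71, while the median over all genes tested was 0.02 on each of these days. These are counts of called members beside the background and not a test of the list. IFI35, IRF9, OAS1X, IFI44 and DDX58 did not pass the F test.

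**Figure D2:**
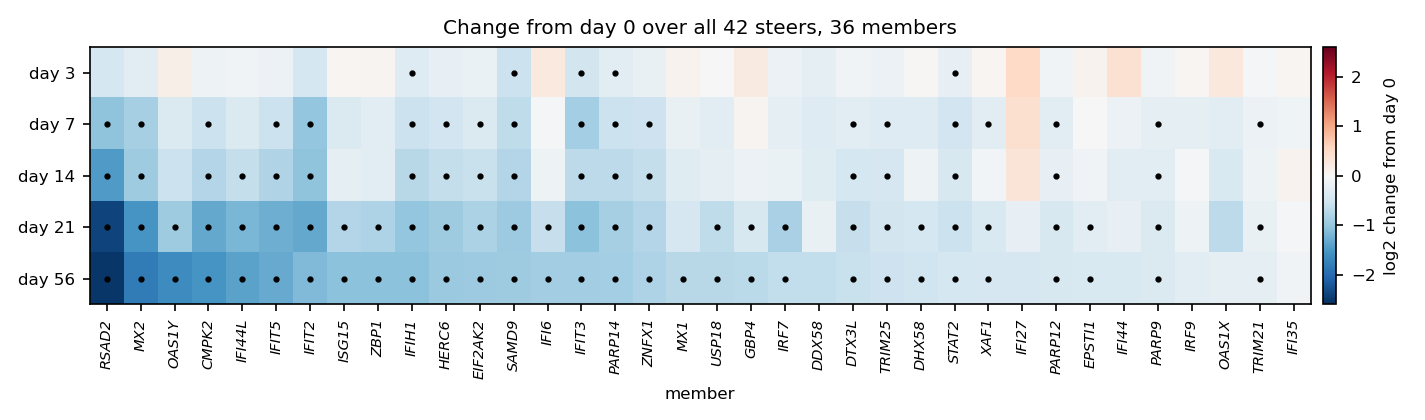
Log2 change from day 0 (colour) for the 36 members tested, ordered on the x axis by their change on day 56, with the later days on the y axis and a black dot where the change passed an FDR of 0.05. RSAD2 stands at the left with -2.54 on day 56, dots fill most of the lower rows, and the few red cells, such as IFI27 on days 3 to 14, carry no dot.

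RSAD2, or viperin, an enzyme that makes a chain-terminating nucleotide against viral polymerases, had the largest fall among the members. On day 0 it lay between 19.1 and 3127 CPM with a median of 103 CPM over 42 steers, and on day 56 between 6.44 and 447 CPM with a median of 19.4 CPM. The ranges overlapped, yet 36 of 42 steers were lower on day 56 than on day 0. The fitted change was -2.54 ± 0.33 (log2, SE, adjusted p = 3.62e-12, edgeR), a 5.80-fold difference. CMPK2, a mitochondrial nucleotide kinase encoded next to RSAD2, fell by 1.53 ± 0.23 on the log2 scale on day 56, and its median went from 68.3 to 27.1 CPM. SAMD9, a restriction factor for poxviruses, had the smallest p of all members. Its median fell from 491 CPM on day 0 to 363 CPM on day 3 and 276 CPM on day 56, 39 of 42 steers were lower on day 56, and the change was already -0.56 ± 0.08 on day 3 and -0.91 ± 0.08 on day 56. GBP4, a guanylate-binding protein, was called lower only on days 21 and 56, by 0.41 ± 0.18 and 0.69 ± 0.18. All 4 tested members of this group of effectors were lower on day 56.

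Among the MX, OAS and PKR effectors, 4 of 5 tested members were lower on day 56. MX2 fell from a median of 506.8 CPM (125 to 5908 CPM) to 149 CPM (43.6 to 2901 CPM), a change of -1.82 ± 0.25, with 34 of 42 steers lower. OAS1Y fell by 1.63 ± 0.27 on the log2 scale. EIF2AK2, which encodes the translation-blocking kinase PKR, fell from a median of 140.5 CPM to 79.6 CPM and was lower in 36 of 42 steers, with a change of -0.94 ± 0.13. MX1 had a smaller estimate, and its difference from MX2 was not tested. Its median went from 337.6 to 246 CPM with 26 of 42 steers lower, and its change of -0.71 ± 0.23 on day 56 was the only day called (adjusted p = 0.00414, edgeR). OAS1X changed by -0.25 ± 0.36 and was not called.

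The 3 IFIT genes, whose proteins bind foreign RNA, were all lower from day 7 on. IFIT5 fell from a median of 90.6 CPM on day 0 to 75.5, 54.6, 48.2 and 38.1 CPM on days 7, 14, 21 and 56, and 37 of 42 steers were lower on day 56, by -1.32 ± 0.15. IFIT2 changed by -1.15 ± 0.23 on day 56 and IFIT3 by -0.89 ± 0.17, and IFIT3 was already lower on day 3, by -0.48 ± 0.17.

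Of the 5 sensors, 4 were lower on days 21 and 56. IFIH1 fell from a median of 119 CPM (56.8 to 688 CPM) on day 0 to 66.99 CPM (40.97 to 212 CPM) on day 56, lower in 38 of 42 steers, and its change was -0.34 ± 0.13 on day 3 and -1.06 ± 0.13 on day 56. ZBP1, a sensor of nucleic acid in the Z form, fell by 1.06 ± 0.23 on day 56, ZNFX1 by 0.81 ± 0.16 and DHX58 by 0.53 ± 0.17. DDX58, with the drops described above, changed by -0.64 ± 0.32 and was not called. STAT2, a transcription factor, fell by 0.46 ± 0.09 and IRF7, the factor that amplifies interferon production, by 0.65 ± 0.28 on day 56, while IRF9 changed by -0.29 ± 0.15 and was not called.

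In the ISG15 and ubiquitin pathway all 6 members were lower on days 21 and 56. ISG15 had medians of 134.5, 131, 111, 123, 114 and 55.03 CPM over the 6 sampling days. Its change was -0.76 ± 0.27 on day 21 (adjusted p = 0.00963, edgeR) and -1.07 ± 0.28 on day 56 (adjusted p = 0.000312, edgeR), with 27 of 42 steers lower on each of these days. USP18, the protease specific for ISG15, fell by 0.71 ± 0.16 and HERC6 by 0.97 ± 0.16 on day 56. TRIM25, an E3 ligase that acts on RIG-I, fell by 0.54 ± 0.08, with medians of 138 CPM on day 0 and 101 CPM on day 56 and 36 of 42 steers lower. TRIM21 changed little, by -0.23 ± 0.07. DTX3L fell by 0.59 ± 0.12, and its gene overlaps PARP9, so reads in the shared stretch may have been assigned to either. All 3 PARP genes were lower from day 7 on, led by PARP14, an ADP-ribosyltransferase, with medians of 344 CPM on day 0 and 209 CPM on day 56, 36 of 42 steers lower and a change of -0.88 ± 0.11 on day 56. Among the small interferon-induced proteins 4 of 7 were lower on day 56. IFI44L was lowered most, by 1.40 ± 0.21, from a median of 125.7 to 53.3 CPM, with 34 of 42 steers lower. IFI6, XAF1 and EPSTI1 fell by 0.90 ± 0.23, 0.44 ± 0.11 and 0.40 ± 0.10. IFI27 had positive changes of 0.51 ± 0.22, 0.41 ± 0.22 and 0.34 ± 0.22 on days 3, 7 and 14, none of them called, and -0.43 ± 0.22 on day 56.

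**Figure D3:**
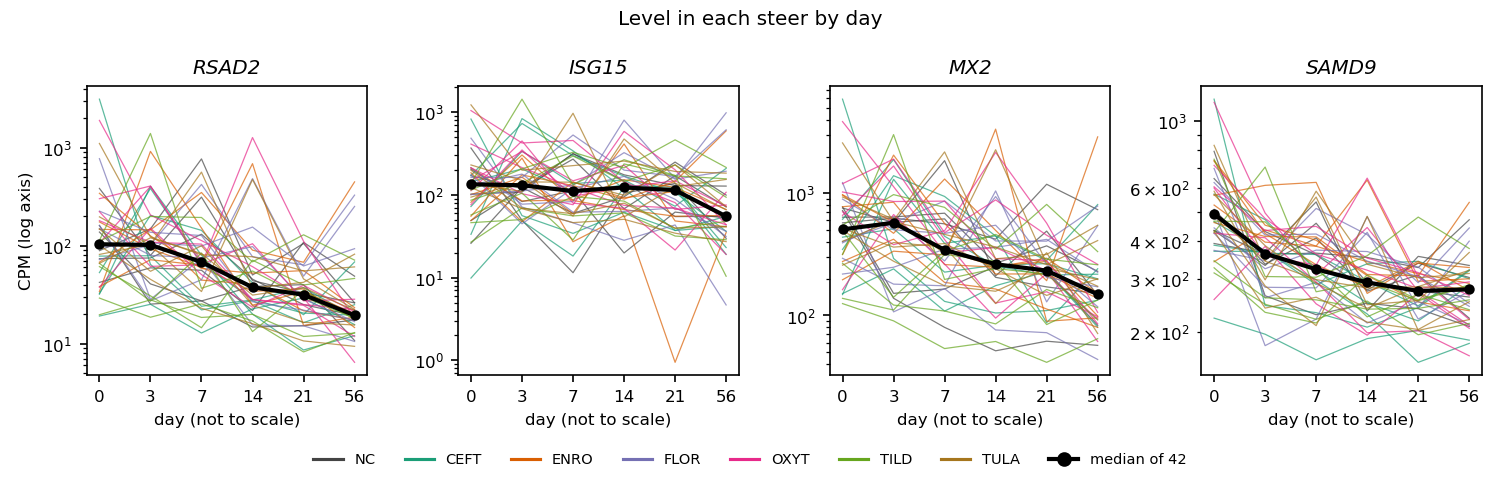
CPM (log axis) of RSAD2, ISG15, MX2 and SAMD9 in each of 42 steers by day, with a thin line for each steer coloured by group and a black line for the median of the 42. The RSAD2 median falls from 103 to 19.4 CPM, the ISG15 median goes from 134.5 to 55.03 CPM, and single steers rise far above the median on a single day.

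Blood holds cells that express these genes at different levels, and in bulk RNA fewer cells of a type and less RNA per cell cannot be told apart. Marker lists of several cell types moved over the same days. The summed level of 8 of 8 monocyte markers had medians of 2474 CPM on day 0 (1525 to 5727 CPM) and 1827 CPM on day 56 (980.2 to 3325 CPM). For 9 of 10 neutrophil markers the medians were 5385 CPM (2980 to 10020 CPM) and 3964 CPM (2406 to 7835 CPM), and CSF3R was not in the table. T cell markers, 10 of 10, went from a median of 2103 CPM (1576 to 3218 CPM) to 2988 CPM (2123 to 4278 CPM). The 10 erythroid markers had medians of 2344 CPM on day 0, 35480 CPM on day 21 and 3397 CPM on day 56. For plasmacytoid dendritic cells, the main source of type I interferon in blood, 6 of 7 markers summed to a median of 447.6 CPM on day 0 and 502.5 CPM on day 56, and CLEC4C was not in the table. The part of these shifts in the fall of the members was not tested.

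The 6 NC steers were followed by the same fit, and their courses were not compared by a test with those of all 42 steers. The F test called 10 of 36 members, or 27.8%, against 32.9% of all genes, a share near the background. On days 3 and 7 edgeR called 0 members, with 4 and 2 at an unadjusted p under 0.05, where 0.173% and 1.67% of all genes were called lower. On day 14, 9 were lower, where 13.4% of all genes were called lower, on day 21 only SAMD9 and STAT2 were lower (10.8%), and on day 56 15 were lower (13.1%) and 0 higher. RSAD2 in NC lay at 42.2, 138, 73.6, 88.8, 161 and 384 CPM on day 0 in steers NC1, NC5, NC7, NC12, NC13 and NC15. On day 56 the same steers had 48.8, 17.4, 19.4, 26.1, 10.7 and 26.04 CPM. NC1 alone was not lower, and without it the days did not overlap. The change was -2.66 ± 0.82 on day 56 (adjusted p = 0.00812, edgeR). MX2, IFIT5 and IFIH1 changed by -2.27 ± 0.66, -1.47 ± 0.40 and -1.06 ± 0.33 in NC, close to their changes over all steers. On day 7, 16 of 36 member changes were below 0 in NC, with a median of 0.02. Over all steers 34 of 36 were below 0 on that day, with a median of -0.33.

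To describe each library by a single value, an ISG score was taken as the mean over the 36 tested members of log2 CPM, each member centred on its own mean over all libraries. A score of 1 thus means that the members lay on average 2-fold above their own mean. The median score over 42 steers was 0.15 on day 0 and 0.20, -0.04, -0.19, -0.24 and -0.54 on the later days in turn. The score was lower on day 56 than on day 0 in 34 of 42 steers, in all 6 NC and all 6 OXYT steers, in 5 each of ENRO, TILD and TULA, in 4 of CEFT and in 3 of FLOR. No test between days or groups was made on the score.

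High values on single days were seen in single animals. In 19 libraries, from 18 of 42 steers, the score was more than 1 above the median of the same steer's 6 libraries. This limit chose them, so their scores are a description. The libraries nearest to the limit were Oxyt4 on day 0 (1.04) and NC5 on day 0 (1.06) inside, and Enro9 on day 56 (0.99) and Oxyt2 on day 3 (0.96) outside. Day 0 had 7 of them, day 3 had 5, day 7 had 2 and day 14 had 4, while day 21 had 0 and day 56 had 1. All 7 groups had them, from 1 in TILD to 4 in OXYT, with 3 each in NC, CEFT, FLOR and TULA and 2 in ENRO, and lanes 1, 2 and 3 held 6, 6 and 7.

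The steepest was Ceft10 on day 0, before any administration in the trial. Its score was 2.56, 3.25 above its own median, and 35 of 36 members lay over 2-fold above their median in that steer, the exception being OAS1X, absent from this animal. RSAD2 stood at 3127 CPM, 125-fold above its median of 24.97 CPM on the steer's other days, and was down to 64.4 CPM or less on those. MX2 stood at 5908 CPM. By day 3 the score was 0.00, and it was -0.96 at its lowest.

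The other libraries of day 0 above the limit were Flor3, with 772 CPM of RSAD2 against 15.5 CPM as the median of its other days, Tula7 with 1104 against 77.1 CPM, Oxyt5 with 1898 against 61.03 CPM, NC13 with 161 against 27.3 CPM, NC5 with 138 against 17.4 CPM, and Oxyt4 with 179.7 against 28.1 CPM. On day 3 they were Tild7 (1397 against 36.7 CPM), Enro2 (916 against 34.02 CPM), Ceft4 (404 against 20.02 CPM), Oxyt6 (401.5 against 28.3 CPM) and Ceft6 (383.5 against 28.2 CPM). For day 7 they were NC12 (768 against 88.8 CPM) and Tula5 (563 against 81.3 CPM). For day 14 they were Oxyt9 (1269 against 63.8 CPM), Enro10 (687 against 38.2 CPM), Flor10 (483.5 against 48.8 CPM) and Tula8 (473 against 45.7 CPM). Flor10 was the only steer above the limit on 2 days, and on day 56 it had 251 CPM of RSAD2.

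A second score above 1 was seldom seen in the same steer. In 16 of the 19, no other library of the same steer had a score above 1, and the exceptions were Oxyt5, with 2.01 on day 0 and 1.16 on day 3, and both libraries of Flor10. Some neighbouring libraries were still above their steer's median, such as Ceft4 on day 7 by 0.84 and Ceft10 on day 3 by 0.69. Others were not, such as Tild7 on day 7 (-0.15). The 3 NC rises fell on days 0, 0 and 7, the 4 OXYT rises on days 0, 0, 3 and 14, and the 3 CEFT rises on days 0, 3 and 3, while no pair of steers in the other 4 groups rose on the same day. The totals of the 19 libraries, 35226984 to 60251356 counts, lay within those of the rest.

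The members took part to different degrees. In each of the 19 libraries 33 or more of the 36 members were above their own steer's median, and 10 members were over 2-fold above it in all 19, namely RSAD2, ZBP1, CMPK2, IRF7, MX2, IFI44L, OAS1Y, IFI6, ISG15 and HERC6. RSAD2 was the member with the largest rise in 12 of the 19, with a median log2 deviation of 3.31 and a range from 1.51 to 6.90. ZBP1 and CMPK2 followed with medians of 2.90 and 2.89. The smallest medians above 0 belonged to DTX3L, SAMD9 and TRIM21, with 0.77, 0.81 and 0.83. SAMD9, which had the smallest p of the day effect, thus ranked low in the rises. OAS1X was the only member with a negative median, -0.70. The interferon genes themselves gave little signal. Of 21 ligand genes listed, 14 were in the table and 3 passed the filter. IFNB1 had a median of 9 counts over all libraries and 11 counts in the 19, IFNG had 12 and 12, and IFNAH never exceeded 5 counts in the 19.

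**Figure D4:**
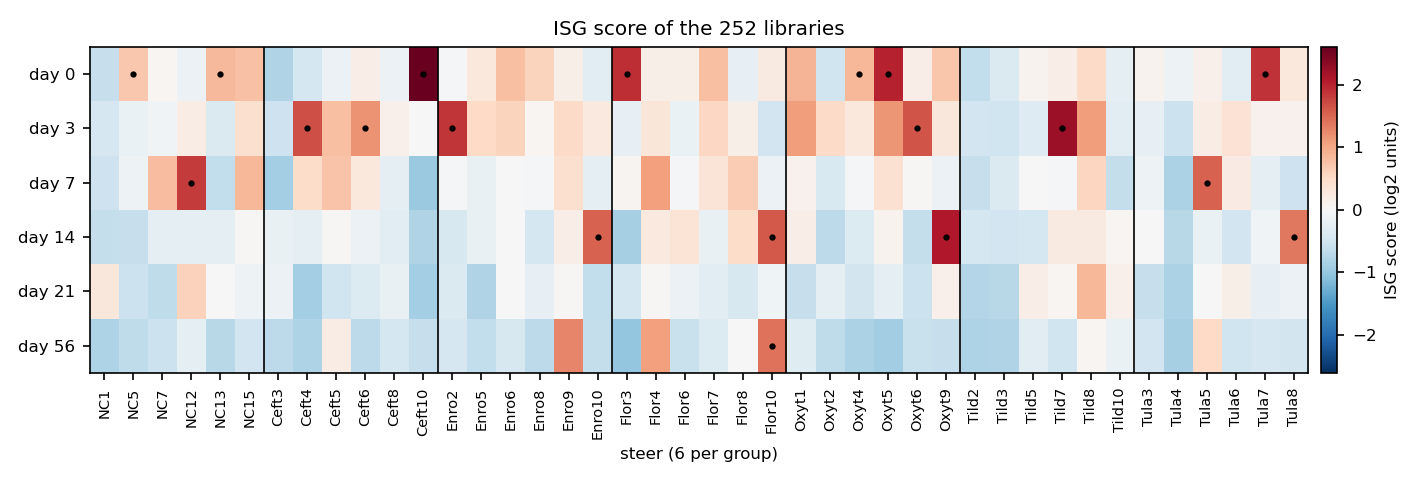
ISG score (colour, log2 units) of each library, with the 42 steers on the x axis, 6 per group between the black lines, and the days on the y axis. A black dot marks the 19 libraries more than 1 above their steer's median, which lie scattered over groups and days, with 7 on day 0 and 0 on day 21, over a background that turns from red to blue downwards.

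The variance of the members was divided between steers, days and groups. As a median over the 36 members, 20.2% of the sum of squares of log2 CPM lay between steers of a group, 10.4% between days, 4.001% between groups and 8.72% in the group-by-day term, and 53.6% remained within steers from day to day. Over all genes tested these medians were 29.7%, 8.36%, 7.27%, 8.45% and 34.7%. The members were also more variable, with a median SD of 0.83 log2 units over the libraries against 0.50 for all genes.

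The members varied together beyond the day course. With the mean of its group and day taken from every value, the Spearman correlation over all libraries had a median of 0.54 over 630 pairs of members, ranging from -0.24 (OAS1X with IFI35) to 0.94 (IFI6 with ZBP1). Libraries of a steer share that steer, so the points are not independent and no p is given. USP18, EIF2AK2, IFI6, CMPK2 and RSAD2 followed the mean of the other members most closely, with rho from 0.91 to 0.89, while IFI27, IFIT2, DDX58, IFI44 and OAS1X followed it least, with 0.38, 0.34, 0.26, 0.15 and -0.11. Of the members, 29 of 36 had a rho above 0.5, against 135 of the 19020 other genes tested. Neighbours on the chromosome were not always alike. RSAD2 and CMPK2 had a rho of 0.91 and PARP9 and PARP14 of 0.88, but MX1 and MX2 had 0.31 and IFI44 and IFI44L 0.18. Among the IFIT genes the values were 0.60 for IFIT2 with IFIT3, 0.50 for IFIT3 with IFIT5 and 0.33 for IFIT2 with IFIT5.

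The 10 genes outside the list whose level followed the ISG score most closely were ADAR, SLC8B1, LOC618409, RTP4, TRANK1, UBA7, TDRD7, DRAM1, CMTR1 and ATP8B4, with rho from 0.89 to 0.82 over all libraries. ADAR, the enzyme that deaminates adenosine in double-stranded RNA, ranged from 176 CPM to 1355 CPM around a median of 266 CPM. UBA7, the activating enzyme for ISG15, ranged from 71.7 to 1309 CPM, and SLC8B1, a mitochondrial sodium-calcium exchanger, from 217 to 5947 CPM with its highest value in Oxyt9 on day 14. For 8 of the 10, the highest library was Ceft10 on day 0, the highest library of the score.

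Differences between treated and NC steers were few and fell on day 3. On each day the 6 libraries of a treatment were compared with the 6 NC libraries by edgeR's quasi-likelihood test at an FDR of 0.1. In 33 of 36 comparisons no member was called, and the other 3 were CEFT, ENRO and OXYT on day 3, with 16 calls on 11 different members, all higher than in NC. On day 3, 5 members were called for CEFT (13.9%), against 10.9% of all genes called and 6.0% called higher. For ENRO 5 members were called (13.9%), against 3.33% of all genes and 1.66% higher, and for OXYT 6 (16.7%), against 3.0% and 1.49%. The CEFT share was near the background. In FLOR, TILD and TULA 0 members were called on day 3, where 2.67%, 3.14% and 0.0105% of all genes were called. An unadjusted p under 0.05 was found for 0, 3 and 2 members, and for 16.9%, 17.6% and 8.87% of all genes. All 6 treatments were compared with the same 6 NC libraries, so these results are not independent.

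**Figure D5:**
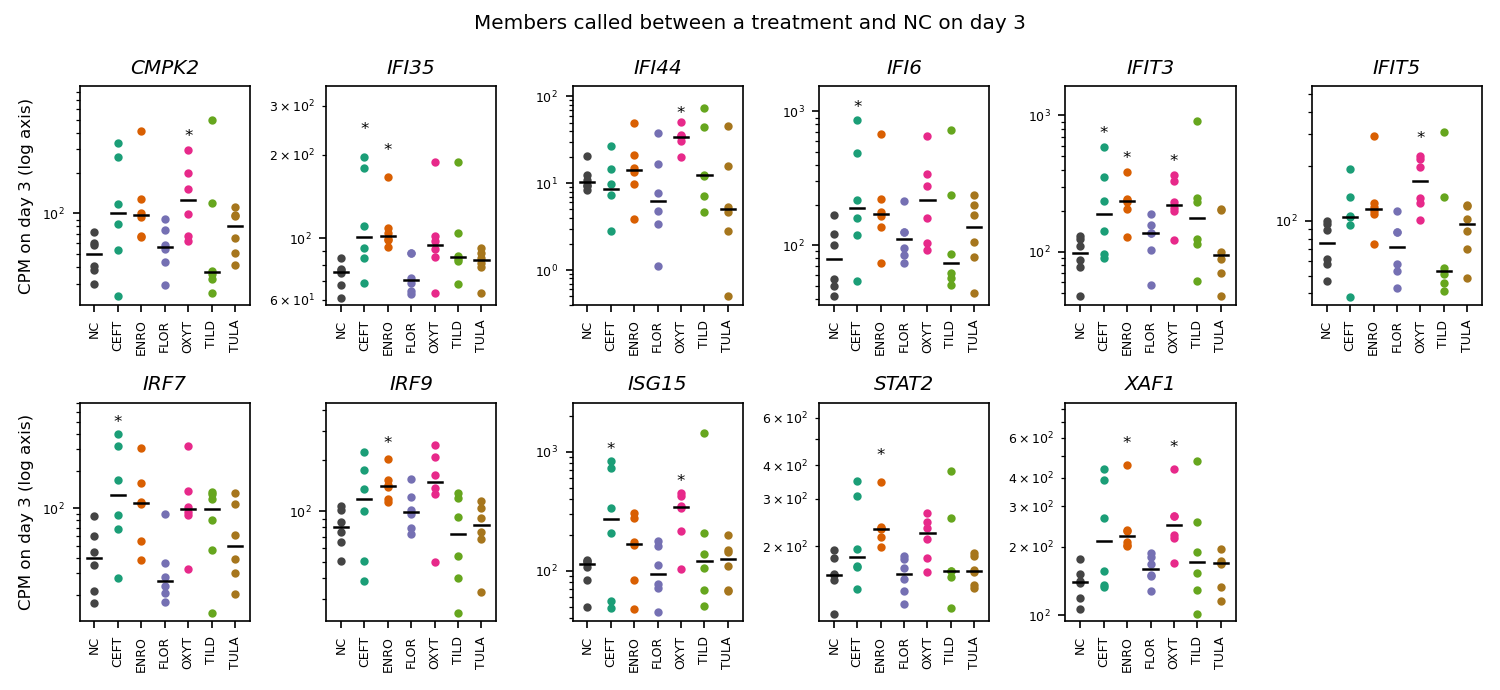
CPM on day 3 (log axis) of the 11 members called in at least 1 treatment, by group, with a point for each of 6 steers, a bar at the group median and an asterisk where the treatment differed from NC at an FDR of 0.1. NC points lie low in most panels, and the ISG15 points of CEFT run from 48.4 to 838 CPM.

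For OXYT, IFI44 had the smallest adjusted p. It lay between 19.8 and 50.7 CPM with a median of 34.4 CPM in OXYT, against 8.30 to 20.5 CPM with a median of 10.3 CPM in NC, and 5 of 6 OXYT steers were above the highest NC steer (log2 difference 1.52 ± 0.25, adjusted p = 0.0339, edgeR). ISG15 lay between 104 and 449.6 CPM in OXYT and between 49.4 and 123 CPM in NC, a 3.09-fold difference, and 5 of 6 steers were above all NC steers. IFIT5 did not overlap between the groups, with 101 to 228 CPM in OXYT and 46.6 to 99.5 CPM in NC (1.15 ± 0.25, adjusted p = 0.0632, edgeR). IFIT3, XAF1 and CMPK2 were 2.51-fold, 1.90-fold and 2.91-fold higher. In all, 2 of 36 members did not overlap between OXYT and NC, or 5.56%, against 1.83% of all genes tested, and 36 of 36 had a positive difference. On day 0, before administration, the difference was positive for 33 of 36 in OXYT, 30 in CEFT and 9 in ENRO. The median log2 differences were 0.62, 0.44 and -0.15 on day 0, and 0.93, 0.71 and 0.77 on day 3. In FLOR on day 56, 36 of 36 were positive as well, and 0 were called.

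For ENRO, IFI35, STAT2, IRF9 and XAF1 had no overlap with NC, 4 of 36 members or 11.1%, against 2.18% of all genes. STAT2 lay between 199 and 346 CPM in ENRO and between 112 and 194 CPM in NC, a 1.53-fold difference (log2 0.62 ± 0.15, adjusted p = 0.0767, edgeR). IRF9, its partner in the interferon-activated complex, lay between 114 and 203 CPM and between 50.4 and 108 CPM, 1.78-fold higher. IFIT3 lay between 128 and 384 CPM in ENRO and between 47.5 and 131 CPM in NC, and 5 of 6 ENRO steers were above all NC steers (1.31 ± 0.27, adjusted p = 0.0563, edgeR). XAF1, a pro-apoptotic protein, was 1.84-fold higher and IFI35 1.51-fold higher. NC and ENRO were sequenced in the same lane, so this comparison is itself within a lane.

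For CEFT the steers were far apart. ISG15 stood at 838, 731, 337 and 206 CPM in Ceft4, Ceft6, Ceft5 and Ceft8 but at 56.2 and 48.4 CPM in Ceft10 and Ceft3, against 49.4 to 123 CPM in NC. The difference of 1.86 ± 0.62 had an adjusted p of 0.0985 (edgeR). IRF7 was 3.997-fold, IFI6 3.50-fold, IFIT3 2.58-fold and IFI35 1.64-fold higher, with adjusted p from 0.0794 to 0.0981 (edgeR), and for each of them 3 or 4 of 6 steers were above all NC steers. Ceft4 and Ceft6 are 2 of the 19 libraries with a steep rise. No member separated CEFT from NC without overlap, where 3.58% of all genes did. Leaving out Ceft4, Ceft5 or Ceft6, or any NC steer but NC5, left 0 members called for CEFT, and leaving out NC5 left 1. Of all genes, 916, 541 and 526 were called without Ceft4, Ceft5 and Ceft6, against 2071 with all steers. Without NC1, NC7, NC12, NC13 and NC15 the number was 944, 216, 132, 305 and 230, and without NC5 it was 2341.

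The ENRO and OXYT calls also depended on single steers. Without Enro5, Enro10, NC7, NC13 or NC15, 0 members were called for ENRO. Of all genes 45, 129, 35, 129 and 72 were then called, against 634 with all steers. Without Enro8 2 members were called, and without NC12 1 was called, with 233 and 100 of all genes. For OXYT every set of 11 steers kept at least 1 call, with 1 called without Oxyt5 or NC7 and 2 without NC13 or NC15. In these 135, 73, 156 and 111 of all genes were called, against 572 with all steers. On day 3 the neutrophil markers, 9 of 10 measured, summed to 2921 to 4386 CPM in NC, 3817 to 6814 CPM in OXYT, 3266 to 4729 CPM in CEFT and 4630 to 8090 CPM in ENRO, the last without overlap with NC. In TILD, where no member was called, they summed to 4527 to 6047 CPM, also above all NC steers. Erythroid markers, 10 of 10, summed to 2869 to 61680 CPM in NC and 209 to 14050 CPM in OXYT, and gamma delta T cell markers, 6 of 8, to 205 to 450.4 CPM in NC and 119.8 to 203 CPM in OXYT, also without overlap, where TRDC and TRGC1 were not in the table. The part of these shifts in the calls was not tested.

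On day 7 most members lay below NC. There 35 of 36 members lay below NC in CEFT, OXYT, TILD and TULA, 34 in ENRO and 31 in FLOR, with medians from -0.26 to -0.79, and 0 were called at an FDR of 0.1, with 1 to 11 at an unadjusted p under 0.05. Of all genes 0.00525%, 0.0157%, 0.0%, 0.0%, 0.268% and 0.0% were called for CEFT, ENRO, FLOR, OXYT, TILD and TULA. The comparisons share the NC libraries of that day, whose ISG scores had a median of 0.33. NC12, NC15 and NC7 stood at 1.82, 0.86 and 0.80, and NC5, NC1 and NC13 at -0.14, -0.54 and -0.65. The part of these NC libraries in the day 7 differences was not tested. Over days other than 3, 116 of 1080 tests of members had an unadjusted p under 0.05, or 10.7%. In the same comparisons the share of all genes ran from 4.62% (OXYT, day 14) to 20.7% (TILD, day 21). On day 7 alone it ran from 4.68% (TULA) to 15.5% (ENRO).

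When each steer was set against its own day 0, no member was called between treatments and NC. The change from day 0 was compared between each treatment and NC on 5 days. By edgeR, 0 members were called at an FDR of 0.05 in 30 comparisons of 36 members. An unadjusted p under 0.05 was found in 48 of 1080 tests (4.44%). Of all 19056 genes, 569 (TILD, day 56) to 3892 (ENRO, day 7) had such a p in a comparison. The F test over the 5 days called 0 members in each of the 6 treatments as well, where 2.52%, 7.26%, 0.404%, 2.51%, 0.152% and 0.0% of all genes were called for CEFT, ENRO, FLOR, OXYT, TILD and TULA, and limma voom called 0 in the 30 comparisons. On day 3 the difference in change was positive for 32 of 36 members in CEFT, 33 in ENRO, 33 in OXYT and 34 in TILD, with medians of 0.52, 0.87, 0.42 and 0.93. It was positive for 7 members in FLOR, with a median of -0.19, and for 17 in TULA, with a median of -0.01. For ISG15 in OXYT the means were 334.8 CPM on day 0 and 313 CPM on day 3, against 154 and 101 CPM in NC, and the difference in change was 0.93 ± 0.996. Oxyt5 alone stood at 1047 CPM on day 0, and the other OXYT steers lay between 76.2 and 412 CPM, within the range of NC apart from Oxyt4. For IFI44 in OXYT the means were 15.9 CPM on day 0 and 34.3 CPM on day 3, against 6.34 and 11.8 CPM in NC, and the difference in change was -0.07 ± 1.17 with an unadjusted p of 0.952 (edgeR). For STAT2 in ENRO the means were 207.5 and 244 CPM, against 224 and 158 CPM in NC, and the difference in change was 0.77 ± 0.33 with an unadjusted p of 0.0197 and an adjusted p of 0.854 (edgeR).

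For the mean of the 6 days, a limma voom fit in which steer was a random effect called only MX1, higher in CEFT (adjusted p = 0.0352) and in TILD (adjusted p = 0.0478), where 3.4% and 5.04% of all genes were called. In ENRO, FLOR, OXYT and TULA 0 members were called, with 0.441%, 1.57%, 0.703% and 0.677% of all genes. The fitted log2 differences were 2.54 ± 0.75 and 2.31 ± 0.75, while the means were 462 and 338 CPM against 302 CPM in NC. Both calls rest on NC1, the steer without MX1 counts. Without NC1 the NC mean was 362 CPM, the differences were 0.15 ± 0.57 and -0.08 ± 0.57, and the adjusted p were 0.928 and 0.963 (limma). With lane as a term, 0 members were called.

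Other genes of the interferon system were described by fixed lists beside the members. Of 33 further interferon-stimulated genes tested, 25 passed the F test over days, a share near the 77.7% of all genes. On day 56, 22 were lower and 1 higher, with a median log2 change of -0.35, where 31.1% of all genes were lower and 32.7% higher. NT5C3A, a nucleotidase, changed by -0.81 ± 0.08, TDRD7 by -0.78 ± 0.10, TRIM56 by -0.54 ± 0.07 and TNFSF10, the death ligand TRAIL, by -0.44 ± 0.07. On day 3 these 33 genes gave 13 calls against NC over the 6 treatments, all of them higher, with some genes called in more than 1 treatment. These were in CEFT, ENRO and OXYT, where 10.9%, 3.33% and 3.0% of all genes were called, and 6.0%, 1.66% and 1.49% called higher. UBE2L6, the conjugating enzyme for ISG15, was higher in CEFT, ENRO and OXYT, at 106 ± 47.5, 131 ± 41.2 and 106 ± 47.6 CPM against 51.2 ± 8.67 CPM in NC (SD, n = 6). The exonuclease gene ISG20 was higher in the same groups, at 192 ± 99.2, 225 ± 60.6 and 175 ± 54.3 CPM against 83.1 ± 26.7 CPM, with adjusted p of 0.0688, 0.033 and 0.0668 (edgeR). IFITM3, which blocks viral entry, stood at 1431 ± 1015 CPM in CEFT and 1391 ± 493 CPM in OXYT against 571 ± 173 CPM. LGALS3BP was called in CEFT, ENRO and OXYT, and LGALS9 in CEFT and OXYT.

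The counts of the next lists on day 56 stand beside 31.1% of all genes lower and 32.7% higher. Of 10 receptors and kinases tested, 4 were lower and 1 higher. The latter was IFNLR1, the receptor chain for interferon lambda, which rose by 0.29 ± 0.08 and was named after its values were seen. JAK2 fell by 0.84 ± 0.06 on the log2 scale, IFNGR1 by 0.44 ± 0.04 and TYK2 by 0.07 ± 0.03. Of 14 genes of the induction pathway, 4 were lower and 4 higher. IKBKE, a kinase that activates IRF factors, rose by 0.49 ± 0.04, while TLR7, TLR3 and CGAS fell by 0.48 ± 0.05, 0.19 ± 0.04 and 0.88 ± 0.14. Of 9 negative regulators 5 were lower and 2 higher, and PTPN11, PTPN2, PIAS1 and SOCS3 fell by 0.59 ± 0.04, 0.23 ± 0.03, 0.32 ± 0.04 and 0.35 ± 0.09. Of 8 genes that respond chiefly to interferon gamma, 4 were lower and 2 higher. CIITA, the master regulator of MHC class II, rose by 0.45 ± 0.04, whereas FCGR1A, GBP5 and IDO1 fell by 0.82 ± 0.19, 0.68 ± 0.15 and 0.49 ± 0.09. IFNG passed the F test and stood at -0.31 ± 0.24 on day 56, and IFNB1 changed by -0.04 ± 0.22.

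Between treated and NC steers these lists gave calls mostly on day 3. Each gene was compared in 6 treatments with the same NC libraries, so it could be called more than once. Over the 6 treatments there were 2 calls among 10 receptors and kinases on day 3, and 7 among 14 genes of the induction pathway. The 9 negative regulators gave 7, most of them PTPN11, and the 8 interferon gamma genes 0. These calls are summed over the treatments and are not shares of the genes in a list. Of all genes, 10.9%, 3.33%, 2.67%, 3.0%, 3.14% and 0.0105% were called for CEFT, ENRO, FLOR, OXYT, TILD and TULA on day 3. With ComBat_seq by lane or with lane as a term, 0 of 19056 genes were called for CEFT on that day and 2 or 1 for OXYT, where 2071 and 572 were called as reported, so by the quasi-likelihood test the CEFT calls of these lists and those of the further interferon-stimulated genes, and nearly all such calls of OXYT, did not hold under lane adjustment. By the likelihood ratio test after ComBat_seq, 42 and 113 genes were called. PTPN11 was lower in CEFT, ENRO, FLOR, OXYT and TILD, at 38.9 ± 6.92, 39.9 ± 3.07, 42.4 ± 5.47, 43.3 ± 2.13 and 40.3 ± 6.29 CPM against 54.8 ± 5.10 CPM in NC. MYD88, the adaptor of most Toll-like receptors, was higher in ENRO (578.5 ± 82.6 CPM) and OXYT (599 ± 121 CPM) than in NC (354 ± 88.7 CPM), and IRF3 was higher in CEFT and ENRO, at 219.9 ± 83.4 and 191 ± 30.6 CPM against 140.0 ± 9.32 CPM. TLR7 was higher in OXYT, at 92.7 ± 10.5 against 63.8 ± 3.14 CPM. JAK2 was lower in CEFT and JAK1 lower in TILD, by 0.59 ± 0.18 and 0.79 ± 0.20 on the log2 scale, and SOCS3 was higher in ENRO by 0.85 ± 0.19. In CEFT the receptor TLR3 was lower, by 0.51 ± 0.14, and its transport partner UNC93B1 higher, by 0.45 ± 0.12, and in OXYT PIAS1 was higher by 0.37 ± 0.10. The only call on another day was GBP5, lower in TILD on day 21, at 12.4 ± 3.58 against 25.5 ± 5.10 CPM, where 0.504% of all genes were called.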

How the data were processed

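Whole blood RNA of 42 steers on 6 days was sequenced by the authors as 150 bp paired-end stranded mRNA libraries. The authors trimmed reads with Trimmomatic 0.39, aligned them with HISAT2 to ARS-UCD1.3, assembled transcripts with StringTie 2.2.0 and derived the deposited counts, whole numbers per gene that are not normalized, from transcript coverage and read length. Per the submitters' processing notes HISAT2 was 2.1.1. The strand setting of the counting is not given in the sources used here.

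The analysis used edgeR 4.0.16 and limma 3.58.1 under R 4.3.3, with sva 3.50.0 and DESeq2 1.42.0 for alternatives, and Python 3.11.15 for summaries. A gene was kept where its CPM exceeded 0.2 in 12 or more libraries. CPM used TMM scaling, and log2 CPM used a prior count of 2. Days were compared by edgeR's quasi-likelihood test with steer as a block (the version before edgeR 4), treatments by the edgeR 4 form on 12 libraries, both with Benjamini-Hochberg adjustment over all genes tested. The SE printed with an edgeR log2 change was not fitted directly. It is the absolute change divided by the square root of its F statistic. No lane adjustment was made, and ComBat_seq was an alternative. Libraries of a steer, which pair over days because they come from the same animal, had a median correlation of 0.342 after subtraction of daily group means, and steer numbers pair nothing between groups. Each library is a separate blood sample, and no 2 libraries held identical counts.

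The members and lists were chosen with earlier results of these data known. The members given with values are the 10 with the smallest p of the day effect, those called between a treatment and NC, and MX1, ISG15 and RSAD2. Of genes outside the list, the 10 with the highest Spearman correlation with the score and up to 4 per pathway list by p, with those called in a treatment test, are named. A gene that this rule would name is not reported here. Single libraries are named where their score was more than 1 above their steer's median. No sequences or coordinates are given, because the gene table used for names is of another build (ARS-UCD2.0). The tests were checked on simulated counts.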

Additional observations from a re-analysis of the deposited data

Results flagged for a closer look

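In 42 sets of 6 steers (a group on a day), the highest or lowest ISG score was set against the others by the gap to its nearest neighbour divided by the range (Dixon's ratio). The 95% critical value was passed in 10 sets, by 9 high libraries and 1 low library, while chance gives about 1 in 20. The sets hold the same steers on 6 days and are not independent, so the number passed is a description. The high ones were Ceft10 on day 0 (score 2.56, next 0.17), Enro2 on day 3 (1.85, next 0.58), Enro10 on day 14 (1.53, next 0.17), Oxyt9 on day 14 (2.08, next 0.18), Tula7 on day 0 (1.88, next 0.26), Tula8 on day 14 (1.38, next 0.01), Enro9 on day 56 (1.28, next -0.41), Tula5 on day 56 (0.51, next -0.44) and Ceft5 on day 56 (0.19, next -0.47). The low one was Ceft10 on day 14 (-0.78, next -0.28). Of the 10, 6 are among the 19 libraries described above. Enro9 on day 56, with 447 CPM of RSAD2, stands apart from its group without being more than 1 above its own steer's median.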

How the results depend on the processing

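Over all 42 steers the number of members with a day effect stayed between 28 and 33 under 12 alternatives (31 as reported). In NC alone, the fit with no replicate block called 3 members in place of 10, and 5 lower on day 56 in place of 15. The pairing of libraries by steer changed no other count by over 1.5 times except the group effect, where 11 were called without the block, while 0 were called with days 3 to 56 only, with lane as a term or without NC replicate 1, against 2 as reported. The 16 calls between treatments and NC depended on the processing: 5 with ComBat_seq by lane, 57 with DESeq2, 0 with lane as a term, 26 with the likelihood ratio test and 6 with no filter on low counts. For CEFT on day 3 (5 as reported), 0 were called with no filter, with ComBat_seq by either test or with lane as a term, 8 with the likelihood ratio test, 13 with DESeq2 and 1 with the older quasi-likelihood test, an alternative chosen after seeing the data, as was leaving out NC1. For ENRO (5), 1 was called with no filter, 8 with the likelihood ratio test with or without ComBat_seq, 14 with DESeq2 and 0 with lane as a term. In these single-day comparisons the fit with lane as a term used all 42 libraries of a day in place of 12. NC and ENRO share lane 1, so lane does not differ within that comparison. For OXYT (6), 10 were called with the likelihood ratio test, 21 with DESeq2 and 0 with lane as a term. After ComBat_seq, 0 were called by the quasi-likelihood test and 6 by the likelihood ratio test. The 57 calls with DESeq2 include some outside these comparisons. Of all genes, DESeq2 called 3551, 1865 and 1854 for CEFT, ENRO and OXYT, where 2071, 634 and 572 were called as reported. The likelihood ratio test called 1420, 503 and 679, and the older quasi-likelihood test 1524, 480 and 441. With no filter it was 477, 119 and 205 of 28408 genes. With lane as a term, 593 genes were called for ENRO. With lane as a term the median member difference was 1.03 for CEFT (0.71 as reported), 0.76 for ENRO (0.77) and 1.04 for OXYT (0.93), with 33, 35 and 35 of 36 members above 0, and with ComBat_seq it was 0.81 for OXYT, with 36 above 0. Leaving out each steer in turn gave 0 to 11 calls for CEFT, 0 to 6 for ENRO and 1 to 6 for OXYT. The number of all genes called then ran from 132 to 3836, from 35 to 1209 and from 73 to 1203. No lane held both NC and CEFT or OXYT steers, so lane and treatment cannot be told apart there. Of 320 alternatives for single called members, 168 stayed past the threshold, 152 did not and 0 changed direction. On day 56 against day 0, 47 of 48 did, and MX1 did not under limma voom. The cause of these differences was not tested.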
